A study of Mus musculus with 8 samples.

Results

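Open chromatin was examined at 10 mouse genes of the Wnt pathway: Tcf7l1, Tcf7l2, Tcf7, Lef1, Axin2, Ctnnb1, Wnt5a, Dkk2, Dkk3 and Sfrp1. A peak was assigned to a gene when it overlapped the gene body or the 50 kb to each side by at least 1 bp, in mm10 coordinates. The genes are 10 of 21938 protein-coding genes in the GENCODE annotation, their windows cover 1.76 Mb, and they hold 134 of the 101701 open regions found across the data. ATAC-seq, in which a transposase inserts adapters into accessible DNA, was run on 8 libraries of 50000 cells each, 2 per group.

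The starting cells were mouse embryonic fibroblasts (MEFs). The other groups were MEFs on day 5 and on day 10 after retroviral delivery of Pou5f1, Sox2, Klf4 and Myc (OSKM), and embryonic stem cells (ESCs). The OSKM cells carried a FLAG control vector as well and grew in ESC medium that contained vitamin C. All groups were wildtype for Jmjd3, the histone demethylase that the study was about. MEFs, OSKM cells and ESC replicate 2 are labelled with the OG2 background, a C57BL/6J line with a GFP reporter under Pou5f1 sequence, while ESC replicate 1 is labelled with the parental strain. By the study's methods the MEFs came from mid-gestation embryos. No sorting of the OSKM cultures is described, and fewer cells with a site open and less opening per cell cannot be told apart. The labels put the ESCs on feeder fibroblasts with LIF, but the methods put the ESCs for ATAC-seq on gelatin in 2i/L, which contains CHIR99021, an inhibitor of the Wnt pathway kinase GSK3. The part of the medium in the ESC values of these Wnt loci was not tested.

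In the canonical pathway, a Wnt ligand bound to Frizzled and LRP receptors stops the destruction complex, in which AXIN proteins hold GSK3 and β-catenin together. β-catenin, the product of Ctnnb1, then enters the nucleus and joins the DNA-binding factors TCF7, LEF1, TCF7L1 and TCF7L2. In ESCs, TCF7L1 is known mainly as a repressor of pluripotency genes that β-catenin relieves. DKK and SFRP proteins are secreted and act outside the cell, and WNT5A is best known as a ligand of β-catenin-independent signalling.

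The data are 1 peak list per group, with 56514 peaks in MEFs, 36219 on day 5, 35226 on day 10 and 48486 in ESCs. The lists are named as intersections and keep no library of a group apart, so no replicate spread can be computed, no test between groups was possible, and every interval below covers counting error only. Peak names are those of replicate 1, and each interval was read as the stretch shared by peaks of both replicates, which no source states. Widths and coordinates below may thus be of the shared part only, while a fold enrichment may belong to a wider peak. Read depth is unknown, and a longer list may come from deeper libraries. As a check of the labels, all 8 fibroblast markers had a peak over a start site in MEFs, against 4 on day 5, 3 on day 10 and 1 in ESCs. Of the 8 ESC markers, 5 had one in ESCs, against 3 in MEFs, 1 on day 5 and 2 on day 10, and Dppa5a and Utf1 had none in any list. The markers of endothelial cells (Pecam1, Cdh5) and blood cells (Ptprc, Csf1r) had no start-site peak in any of the 4 lists.

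The first comparison asked how many peaks the 10 loci held along the route from MEFs to ESCs. MEFs held 75 peaks (95% exact Poisson interval 59.0 to 94.0), day 5 held 40 (28.6 to 54.5), day 10 held 49 (36.3 to 64.8) and ESCs held 62 (47.5 to 79.5). In the full lists, peaks at the loci were thus fewest on day 5, and the intervals of MEFs and day 5 did not overlap, while those of MEFs and ESCs did. This order depended on the lengths of the lists. With each list cut to the 35226 highest scores, the loci held 46 peaks in MEFs (33.7 to 61.4), 38 on day 5 (26.9 to 52.2), 49 on day 10 (36.3 to 64.8) and 40 in ESCs (28.6 to 54.5). All 4 intervals then overlapped, day 10 held the most peaks, and the ratio of day 5 to MEFs was 0.826. Relative to MEFs in the full lists, the loci held 0.533 times as many peaks on day 5, 0.653 times on day 10 and 0.827 times in ESCs. Over the genome the full lists gave ratios of 0.641, 0.623 and 0.858, which also placed ESCs closest to MEFs but had day 5 and day 10 nearly level. In the full lists the open bases at the loci summed to 67.3 kb in MEFs, 22.8 kb on day 5, 33.0 kb on day 10 and 42.2 kb in ESCs. Over the genome the same lists covered 46.9 Mb, 25.1 Mb, 28.2 Mb and 34.2 Mb. Open bases were taken from the full lists only.

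**Figure D1:**
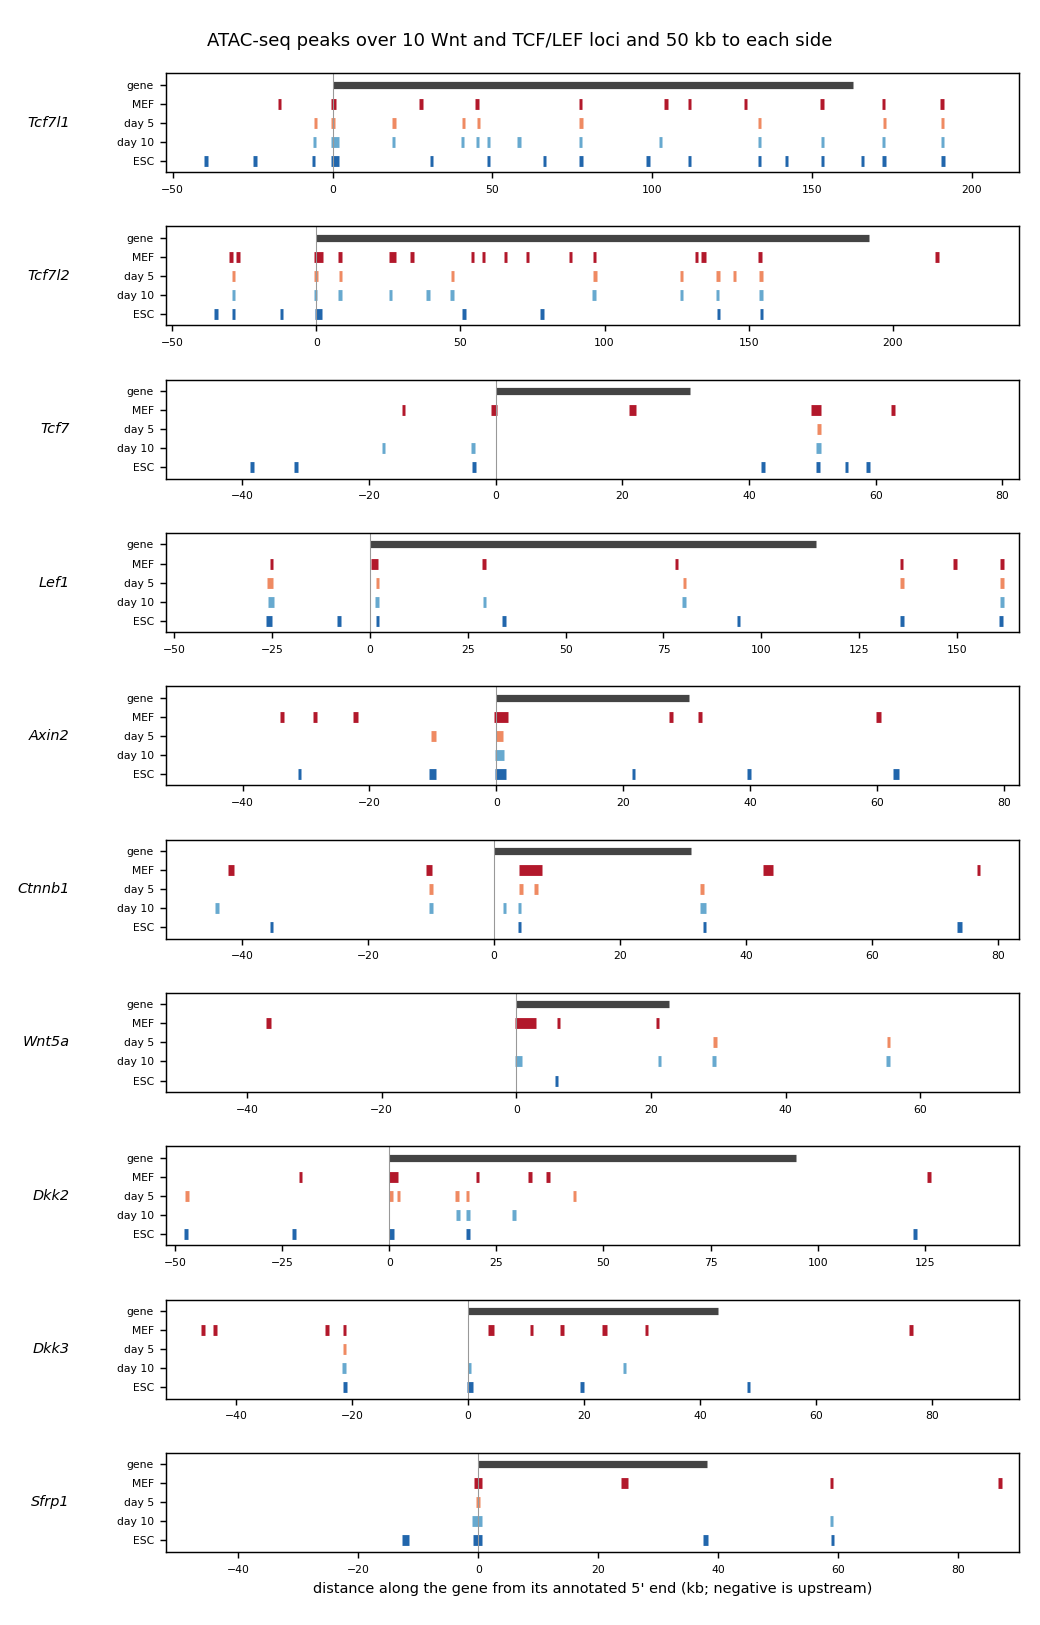
Peaks over the 10 loci in the 4 lists, drawn against distance from the annotated 5′ end of each gene in kb, with transcription running to the right and the gene body as a grey bar. Narrow peaks are widened to stay visible, and Tcf7l1, with 16 peaks in ESCs, is the locus most filled in ESCs, while Dkk3 has 10 peaks in MEFs and 1 on day 5.

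Per locus, the median was 6.5 peaks in MEFs, 3 on day 5, 3.5 on day 10 and 5.5 in ESCs, against 5, 3, 3 and 4 over all protein-coding genes. More peaks in MEFs than in ESCs were found at 6 of the 10 loci (Tcf7l2, Axin2, Ctnnb1, Wnt5a, Dkk2 and Dkk3), where the background was 42.2% of protein-coding genes. Fewer were found at 2 loci (Tcf7l1 and Tcf7), with a background of 35.6%, and Lef1 and Sfrp1 had equal counts. The median difference, MEF minus ESC, was 1 peak at the loci and 0 over all protein-coding genes. On day 5, 9 of the 10 loci held fewer peaks than in MEFs, with Dkk2 equal, against a background of 63.2%. On day 10, 7 of 10 held more peaks than on day 5 and 2 held fewer (Axin2 and Dkk2), against a background of 33% for more peaks. At equal list length, 5 loci held fewer peaks on day 5 than in MEFs (35.6% of protein-coding genes) and 7 held more on day 10 than on day 5 (35.3%), while 4 held more in MEFs than in ESCs (34.6%) and 3 fewer (38.2%). None of these shares was tested against its background, and the background genes were not matched for window length or peak density. The windows of the 10 loci ran from 122.7 kb (Wnt5a) to 291.8 kb (Tcf7l2), and counts per locus were not adjusted for length. Per Mb the loci held 42.6 peaks in MEFs, 22.7 on day 5, 27.8 on day 10 and 35.2 in ESCs. Over the genome the values were 20.7, 13.3, 12.9 and 17.8.

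**Figure D2:**
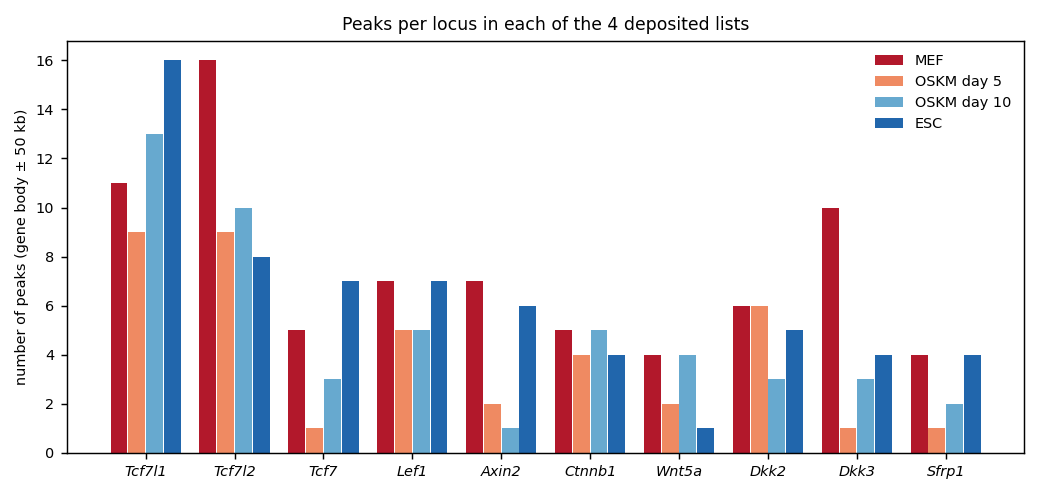
Number of peaks (bar height) within the gene body and 50 kb to each side of each locus in MEFs, on OSKM day 5, on OSKM day 10 and in ESCs, with 1 list per group and hence no error bars. Tcf7l1 runs from 9 on day 5 to 16 in ESCs, whereas Tcf7l2 is highest in MEFs, with 16.

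Start sites are annotated first bases of transcripts. A peak covered a start site of 8 of the 10 genes in MEFs, 5 on day 5, 7 on day 10 and 8 in ESCs. Over all protein-coding genes the shares were 60%, 52.1%, 56% and 55.8%. Tcf7l1, Tcf7l2, Axin2, Ctnnb1 and Sfrp1 had such a peak in all 4 lists. Tcf7 had one only in MEFs, Wnt5a in all but day 5, Dkk2 in MEFs and ESCs, and Dkk3 on day 10 and in ESCs. Lef1 had none in any list. When each list was cut to the length of the shortest by score, 5 of these 8 genes still had a start-site peak in MEFs, and those of Tcf7, Ctnnb1 and Wnt5a were no longer listed.

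**Figure D3:**
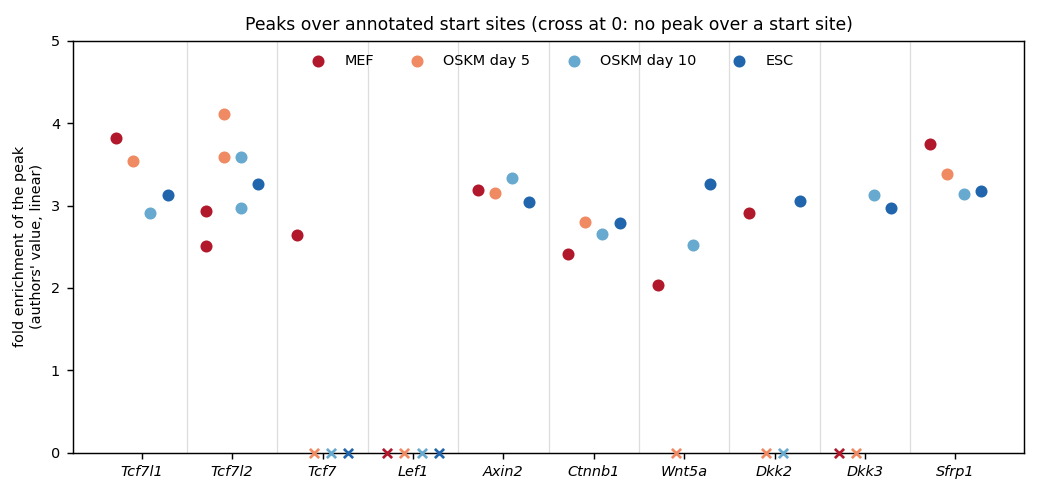
Authors' fold enrichment (linear, vertical axis) of each peak over an annotated start site, by gene and list, with a cross at 0 where the list has no such peak and 2 points where 2 peaks cover start sites of one gene. The dots lie between 2.04 (Wnt5a, MEFs) and 4.11 (Tcf7l2, day 5), and enrichments are relative to background within a list, so their order between lists is not a difference in opening.

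Ctnnb1 (ENSMUSG00000006932.17, chr9:120929216-120960507, plus strand) encodes β-catenin. Its window held 5 peaks in MEFs, 4 on day 5, 5 on day 10 and 4 in ESCs, the least varied counts of the 10 genes. In MEFs a peak of 3677 bp at chr9:120933120-120936796 covered 6 of the 15 annotated start sites, with a fold enrichment of 2.41. The peaks at the same place were 200 bp wide on day 5 (chr9:120933231-120933430, fold enrichment 2.80, 1 start site), 599 bp on day 10 (chr9:120932930-120933528, 2.66, 3 start sites) and 509 bp in ESCs (chr9:120932956-120933464, 2.79, 1 start site). All 4 lists therefore marked this group of starts, with the broadest interval in MEFs. The 5′-most annotated start of the gene, 120929216, had no peak in any list. The MEF-specific region with the highest fold enrichment (4.06) lay 41.4 kb upstream of the nearest start at chr9:120886985-120887865. The matching ESC-specific region (3.32) was at chr9:121002613-121003376, in an intron of the neighbouring gene Ulk4. Of the 2 transient regions, the higher (3.23, day 10) was at chr9:120884967-120885325.

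Tcf7l1 (ENSMUSG00000055799.13, chr6:72626378-72789254, minus strand) encodes TCF7L1, formerly called TCF3. Its window held 11 peaks in MEFs, 9 on day 5, 13 on day 10 and 16 in ESCs, and the gene body alone held 8, 6, 10 and 10. It was the member with the most peaks on day 10 and in ESCs, and on day 10 it exceeded the MEF count, as no other member did. Its window, at 262.9 kb, was longer than all but that of Tcf7l2. The start region was listed throughout, at chr6:72788124-72789683 in MEFs (fold enrichment 3.82), chr6:72788356-72789672 on day 5 (3.54), chr6:72787376-72789878 on day 10 (2.90) and chr6:72787185-72789876 in ESCs (3.13). Each of these 4 peaks covered the same number of starts, 3 of 5. At this start the intervals of day 10 and ESCs, 2503 and 2692 bp, were wider than those of MEFs and day 5, 1560 and 1317 bp.

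Around this gene 5 regions were MEF-specific, 10 ESC-specific, 6 common and 4 transient. Of the ESC-specific regions, 2 had a peak on both OSKM days: an intronic region at chr6:72655368-72656242 and a region 5.62 kb upstream at chr6:72794878-72795673. Another, at chr6:72740164-72741035 in an intron, was shared by day 10 and ESCs and had the highest fold enrichment of the class, 4.41 in ESCs and 2.63 on day 10. The highest MEF-specific region, 4.05, was intronic at chr6:72659705-72660528, and the highest transient region, 3.85 on day 10, was intronic at chr6:72686790-72687081. Another transient intronic region at chr6:72770076-72770769 was listed on both days, with fold enrichments of 3.70 and 3.51.

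The sequences of 4 of these intronic stretches are shown because each carried a match to a factor motif in a region absent from the MEF list. They are in the orientation of the gene, 5′ to 3′, in lower case, and capitals mark a match on either strand to the TCF/LEF motif (CTTTGAA or CTTTGAT) in the first 3 and to the octamer (ATGCAAAT), the OCT4 motif, in the last. They are from GRCm38, minus strand, and a match is a description of the letters and not a binding site. A list is named where its peak overlapped any part of the stretch, which need not include the match. At chr6:72740416-72740596 the match lay outside the day 10 peak, and only the ESC peak held it. At chr6:72770492-72770672 the match lay outside the day 5 peak, and only the day 10 peak held it.
Tcf7l1 intron, chr6:72655907-72656087, listed in day 5, day 10, ESC: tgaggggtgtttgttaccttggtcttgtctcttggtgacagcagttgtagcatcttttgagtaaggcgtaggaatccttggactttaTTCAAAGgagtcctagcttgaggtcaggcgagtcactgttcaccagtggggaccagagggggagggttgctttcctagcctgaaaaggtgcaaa
Tcf7l1 intron, chr6:72740416-72740596, listed in day 10, ESC: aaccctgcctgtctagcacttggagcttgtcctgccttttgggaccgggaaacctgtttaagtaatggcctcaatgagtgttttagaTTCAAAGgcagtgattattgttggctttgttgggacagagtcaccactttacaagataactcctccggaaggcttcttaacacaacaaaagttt
Tcf7l1 intron, chr6:72770492-72770672, listed in day 5, day 10: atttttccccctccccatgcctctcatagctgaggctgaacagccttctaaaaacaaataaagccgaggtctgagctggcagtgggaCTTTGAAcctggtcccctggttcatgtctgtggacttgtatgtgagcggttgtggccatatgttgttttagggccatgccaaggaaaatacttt
Tcf7l1 intron, chr6:72647435-72647615, listed in ESC: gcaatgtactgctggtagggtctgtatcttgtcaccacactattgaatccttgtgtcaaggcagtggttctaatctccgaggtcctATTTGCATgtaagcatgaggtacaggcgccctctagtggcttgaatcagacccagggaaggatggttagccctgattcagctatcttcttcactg

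Tcf7l2 (ENSMUSG00000024985.19, chr19:55741820-55933654, plus strand) encodes TCF7L2, formerly TCF4, an activator of Wnt targets in many tissues. Its window held 16 peaks in MEFs, 9 on day 5, 10 on day 10 and 8 in ESCs, and the difference of 8 peaks between MEFs and ESCs was the largest of the 10 loci. Of its 25 regions, 13 were MEF-specific, the most of any member, 5 ESC-specific, 3 common and 4 transient. Its window, at 291.8 kb, was also the longest, and these rankings are of counts not adjusted for length. Dkk3 held 9 MEF-specific regions in a window of 143.0 kb. In the gene body of Tcf7l2 the counts were 13, 8, 9 and 5. The ESC count there included an interval of 2 bp and another that began and ended at the same base. At the 5′ end of the gene, peaks lay at chr19:55741055-55744115 in MEFs (3061 bp, fold enrichment 2.51), chr19:55741195-55741845 on day 5 (651 bp, 3.59), chr19:55741038-55741826 on day 10 (789 bp, 2.98) and chr19:55741362-55743857 in ESCs (2496 bp, 3.26). The wide peaks of MEFs and ESCs each covered 11 of the 17 starts there, and the narrow ones of both OSKM days covered 1.

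A second group of Tcf7l2 starts inside the gene had peaks at chr19:55895151-55896058 in MEFs (2.94), chr19:55895510-55895950 on day 5 (4.11) and chr19:55895552-55896187 on day 10 (3.58). In ESCs no peak covered a start there, although a peak lay in the same merged region. In all, 13 starts were covered in MEFs, 3 on day 5, 2 on day 10 and 11 in ESCs. The highest regions by class were chr19:55956607-55957190 downstream of the gene for MEFs (3.83), chr19:55729184-55729863 upstream for ESCs (3.63) and the intronic chr19:55788354-55788742 for the transient class, listed on both days (4.12 on day 5 and 2.90 on day 10). The intronic stretch below, in the plus strand of GRCm38, is from a MEF-specific region. It is shown because it carries a TCF/LEF match and a match to TGAGTCA, the AP-1 motif. Capitals mark both, on either strand.
Tcf7l2 intron, chr19:55875732-55875932, listed in MEF: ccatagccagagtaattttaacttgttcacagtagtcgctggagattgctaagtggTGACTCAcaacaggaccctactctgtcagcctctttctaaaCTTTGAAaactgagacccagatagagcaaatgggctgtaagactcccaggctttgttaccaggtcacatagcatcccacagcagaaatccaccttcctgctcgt

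Tcf7 (ENSMUSG00000000782.15, chr11:52252371-52283014, minus strand) encodes TCF7, also called TCF1, a factor best known from T cells. Its window held 5 peaks in MEFs, 1 on day 5, 3 on day 10 and 7 in ESCs. The peak shared by all 4 lists covered the start of the neighbour Skp1a and not of Tcf7. The only peak over a Tcf7 start was in MEFs, at chr11:52282791-52283697, with a fold enrichment of 2.64 that exceeded 14.4% of the MEF list. The nearest peaks of ESCs and day 10 lay upstream in the region chr11:52286292-52286905, 3278 and 3550 bp from the start, with fold enrichments of 2.95 and 2.37. The gene body held 2 peaks in MEFs and 0 in each of the other lists, so the higher ESC count came wholly from the flanks. The highest regions by class lay upstream, at chr11:52297337-52297816 for MEFs (2.86), chr11:52314278-52314799 for ESCs (3.42) and chr11:52300636-52301041 for the transient class (3.07, day 10). A pair of stretches is shown, in the orientation of Tcf7 (GRCm38, minus strand), because they carry TCF/LEF matches (capitals, either strand), one in an ESC-specific and one in a MEF-specific region.
Downstream of Tcf7, intron of Skp1a and Gm26551, chr11:52240840-52241087, listed in ESC: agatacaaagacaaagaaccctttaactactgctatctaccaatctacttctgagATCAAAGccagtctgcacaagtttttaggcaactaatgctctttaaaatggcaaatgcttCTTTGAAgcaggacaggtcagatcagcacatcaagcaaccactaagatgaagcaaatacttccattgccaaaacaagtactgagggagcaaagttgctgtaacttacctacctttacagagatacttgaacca
Upstream of Tcf7, intron of A630014C17Rik, in the start-site peak, chr11:52283281-52283461, listed in MEF: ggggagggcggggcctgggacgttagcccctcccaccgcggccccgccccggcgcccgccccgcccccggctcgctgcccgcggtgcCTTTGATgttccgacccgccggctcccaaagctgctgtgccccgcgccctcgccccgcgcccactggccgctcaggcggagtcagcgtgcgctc

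Lef1 (ENSMUSG00000027985.14, chr3:131110471-131224356, plus strand) encodes LEF1, which is associated with lymphoid and mesenchymal cells. Its window held 7 peaks in MEFs, 5 on day 5, 5 on day 10 and 7 in ESCs. No list had a peak over a Lef1 start, but each had one close by, 324 bp away in MEFs, 277 bp on day 5, 189 bp on day 10 and 241 bp in ESCs. These peaks fell in 1 region, chr3:131110795-131112608, with fold enrichments of 3.16, 3.14, 3.17 and 3.07. With a distance of 1 kb from any annotated start all 4 lists had a call, but not at the same start. From the annotated 5′ end of the gene the peak began 0.324 kb away in MEFs. It began 1.55 kb away on day 5, 1.35 kb on day 10 and 1.47 kb in ESCs. Within 1 kb of the 5′ end only MEFs thus had a peak, and the distances of the other lists are to a start inside the gene. A region 24.5 kb upstream, chr3:131083797-131085969, was also open in all 4 lists, with fold enrichments of 5.03 in MEFs, 3.42 on day 5, 3.44 on day 10 and 3.94 in ESCs. Of the 11 regions, 4 were common, 3 MEF-specific, 3 ESC-specific and 1 transient. The highest MEF-specific region (3.35, also listed on day 10 at 2.85) was intronic at chr3:131139196-131139811, and the highest ESC-specific region (3.67) lay upstream at chr3:131102092-131102691.

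The transient Lef1 region at chr3:131190181-131191122 was listed on both days (3.48 and 3.04) and in neither MEFs nor ESCs. Its intronic stretch is shown (GRCm38, plus strand) because it carries a TCF/LEF match (capitals) in a region seen during reprogramming alone.
Lef1 intron, chr3:131190773-131190953, listed in day 5, day 10: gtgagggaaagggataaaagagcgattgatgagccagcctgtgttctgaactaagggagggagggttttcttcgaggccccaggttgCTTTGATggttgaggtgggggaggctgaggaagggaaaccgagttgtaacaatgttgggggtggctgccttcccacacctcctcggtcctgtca

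Axin2 (ENSMUSG00000000142.15, chr11:108920349-108950783, plus strand) encodes a scaffold of the destruction complex and is a standard target gene of β-catenin. Its window held 7 peaks in MEFs, 2 on day 5, 1 on day 10 and 6 in ESCs. With flanks of 10 kb or 100 kb, ESCs held 1 peak more than MEFs, so the order of these 2 counts depends on the window. Both OSKM days had few peaks beyond the start region, which was listed at chr11:108919924-108922161 in MEFs (fold enrichment 3.19), chr11:108920263-108921428 on day 5 (3.16), chr11:108920124-108921630 on day 10 (3.33) and chr11:108920136-108921853 in ESCs (3.05). These peaks covered 4, 3, 3 and 4 of the 7 starts. The other 11 regions divided into 6 MEF-specific and 5 ESC-specific ones, with no further region shared by MEFs and ESCs and none transient. The similar totals of MEFs and ESCs therefore came from different regions outside the start. The highest MEF-specific region (4.54) lay 21.8 kb upstream at chr11:108897798-108898574, and the highest ESC-specific region (3.42) lay 30.8 kb upstream at chr11:108889050-108889529. The second peak on day 5 was in a region shared with ESCs, at chr11:108909754-108910894 (3.24 on day 5 and 2.84 in ESCs).

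The start region of Axin2 held 4 TCF/LEF matches on the plus strand, 2 of them within the intronic stretch below. That stretch and one from the upstream MEF-specific region are shown (GRCm38, plus strand) because each holds a pair of matches close together, in capitals. The number of matches expected in sequence of such lengths was not computed.
Axin2 intron, start region, chr11:108921195-108921275, listed in MEF, day 5, day 10, ESC: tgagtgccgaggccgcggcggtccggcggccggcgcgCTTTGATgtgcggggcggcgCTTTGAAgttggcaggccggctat
Axin2 upstream, chr11:108897798-108897934, listed in MEF: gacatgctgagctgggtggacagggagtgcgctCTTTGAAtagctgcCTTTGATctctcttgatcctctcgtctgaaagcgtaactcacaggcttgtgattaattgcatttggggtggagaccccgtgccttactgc

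Wnt5a (ENSMUSG00000021994.15, chr14:28504750-28527448, plus strand) is the ligand of the set. Its window held 4 peaks in MEFs, 2 on day 5, 4 on day 10 and 1 in ESCs, the lowest ESC count of the 10 loci. The window, at 122.7 kb, was also the shortest. At equal list length the difference MEF minus ESC was 0 in place of 3. In MEFs a peak of 3110 bp at chr14:28504579-28507688 covered 2 of the 6 starts, with a fold enrichment of 2.04 that exceeded only 0.283% of the MEF list. On day 10 a peak of 961 bp lay at chr14:28504600-28505560 (2.52), and on day 5 the nearest peak was 22525 bp from a start. The single ESC peak, chr14:28510486-28510773 (3.26), covered another start inside the gene that belongs to no protein-coding transcript, so with protein-coding starts alone Wnt5a was called in MEFs and on day 10 only. No region of the locus was ESC-specific. The 2 transient regions were downstream and listed on both days, chr14:28533823-28534173 with fold enrichments of 3.90 and 3.39 and chr14:28559678-28560234 with 3.47 and 4.56. They were the only Wnt5a peaks on day 5. Among the 3 MEF-specific regions the highest (3.49) lay in an intron of Erc2 at chr14:28467537-28468283, and the other 2, at the start and in the last part of the gene, were shared with day 10.

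Dkk2 (ENSMUSG00000028031.6, chr3:132085292-132180304, plus strand) encodes a secreted modulator of LRP receptors. Its window held 6 peaks in MEFs, 6 on day 5, 3 on day 10 and 5 in ESCs. It was the only member with as many peaks on day 5 as in MEFs, and the gene body held 4, 5, 3 and 2. The start was covered in MEFs (chr3:132085285-132087427, fold enrichment 2.91) and in ESCs (chr3:132085188-132086334, 3.06). On day 5 the nearest peak began 29 bp from the start and on day 10 the nearest lay 15653 bp away, so day 10 alone left the start without a peak close by. Of the 13 regions, 5 were MEF-specific, 4 ESC-specific, 1 common and 3 transient. The highest were chr3:132210898-132211792 downstream for MEFs (4.80), chr3:132062642-132063253 upstream for ESCs (3.54) and the intronic chr3:132100677-132101285 for the transient class (3.23 on day 5 and 2.98 on day 10).

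Dkk3 (ENSMUSG00000030772.6, chr7:112116017-112159057, minus strand) encodes a secreted glycoprotein of the Dickkopf family. Its window held 10 peaks in MEFs, 1 on day 5, 3 on day 10 and 4 in ESCs. The gene body held 5, 0, 2 and 2. Of the 14 regions 9 were MEF-specific, and the single day 5 peak was in the one region common to all lists, chr7:112180025-112180787 upstream of the gene. The start was covered on day 10 (chr7:112158621-112159115, fold enrichment 3.13) and in ESCs (chr7:112158267-112159171, 2.97) but not in MEFs, where the nearest peak was 3379 bp away, nor on day 5, where it was 21208 bp away. MEFs thus had the most peaks at this locus and none at its start. The highest MEF-specific region (4.06) was intronic at chr7:112135064-112135944, the highest ESC-specific one (4.11) intronic at chr7:112139351-112139659 and the transient one (3.00, day 10) intronic at chr7:112131895-112132315.

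Sfrp1 (ENSMUSG00000031548.7, chr8:23411502-23449632, plus strand) encodes a secreted protein that binds Wnt ligands. Its window held 4 peaks in MEFs, 1 on day 5, 2 on day 10 and 4 in ESCs. The start was covered in all 4 lists, at chr8:23410712-23412179 in MEFs (fold enrichment 3.74), chr8:23411054-23411784 on day 5 (3.38), chr8:23410476-23412122 on day 10 (3.14) and chr8:23410647-23412058 in ESCs (3.18). On day 5 that was the only peak of the locus. A region downstream at chr8:23470047-23470698 was open in MEFs, on day 10 and in ESCs. The remaining 4 regions divided into 2 MEF-specific ones, the highest intronic at chr8:23435309-23436407 (3.19), and 2 ESC-specific ones, the highest at chr8:23448915-23449713 (4.73), of which 718 bp lay in an annotated exon.

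The second comparison sorted regions, defined as peaks of the 4 lists merged within 400 bp, by the lists that held them. Of the 134 member regions, 54 were MEF-specific (peak in MEFs and not ESCs), or 40.3% (95% Wilson interval 32.4% to 48.8%), against 36.4% of all regions. ESC-specific regions numbered 41, or 30.6% (23.4% to 38.8%), against 28.4%. Common regions numbered 21, or 15.7% (10.5% to 22.8%), against 19.1%, and transient ones, open on an OSKM day alone, numbered 18, or 13.4% (8.67% to 20.2%), against 16.1%. Each genome share lay inside the interval of the member share, so no difference in class composition was detectable with this number of regions. The shares themselves depended on the lengths of the lists. At equal list length the transient share was 28.7% of 101 member regions (20.8% to 38.2%), against 25.9% of all regions, and the MEF-specific share was 31.7% (23.4% to 41.3%), against 28.4%. There too the genome share of each of the 4 classes lay inside the interval of the member share.

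**Figure D4:**
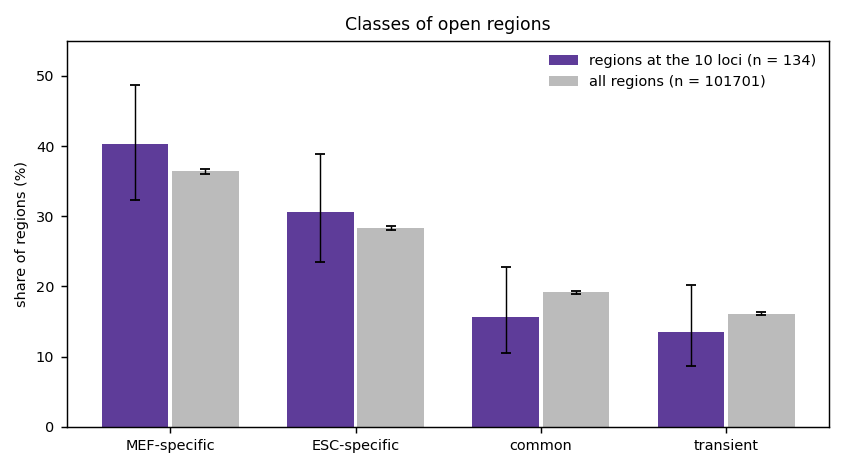
Share of regions in each class (vertical axis, percent) at the 10 loci and over all regions, with 95% Wilson intervals as bars, which cover counting error only. The intervals of the 134 member regions contain the genome share in each of the 4 classes, for example 32.4% to 48.8% around 36.4% for MEF-specific regions.

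Of the 54 MEF-specific member regions, 46 had a peak on neither OSKM day, or 85.2%, against 81.1% of all MEF-specific regions. The other 8 were all listed on day 10, and 4 of them also on day 5. Of the 41 ESC-specific member regions, 31 had a peak on neither day, or 75.6%, against 84.9% of all ESC-specific regions. The 10 ESC-specific regions already listed during reprogramming lay at Tcf7l1 (3), Dkk2 (2) and, with 1 each, Tcf7l2, Tcf7, Axin2, Ctnnb1 and Dkk3. The Tcf7l2 region was in this class only through an ESC interval that began and ended at the same base. Common regions had a peak on both days in 15 of 21 cases, or 71.4%, against 72.3%. Transient regions had one on both days in 8 of 18 cases, or 44.4%, against 42.5%. Of the remaining transient regions, 8 were listed on day 10 alone and 2 on day 5 alone. Over all transient regions, 21.3% were listed on day 10 alone and 36.2% on day 5 alone, so the order of these shares was the other way round at the loci. This difference was not tested.

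The classes differed in width and place. Common member regions had a median width of 1350 bp, MEF-specific ones 600.5 bp, ESC-specific ones 600 bp and transient ones 397.5 bp, and over all regions the medians were 1234, 628, 547 and 522 bp. A member's own start lay in 8 of the 21 common regions, 2 of the 54 MEF-specific, 1 of the 41 ESC-specific and 0 of the 18 transient regions. The start of another gene lay in 6, 0, 1 and 1 of them. Most group-specific and transient regions at these genes thus held no annotated start. The gene body of the member, around which the windows were drawn, was touched by 31 MEF-specific, 16 ESC-specific and 14 transient regions. Place was not computed over all regions, so none of these counts can be read as particular to these genes. The shortest region was 2 bp, a single ESC interval at Tcf7l2. Another ESC interval at Tcf7l2 began and ended at the same base, 138.874 kb from the 5′ end of the gene. That interval alone placed the region chr19:55880479-55881161, listed on both OSKM days, in the ESC-specific class.

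Sequence matches were counted in 200 bp at the midpoint of each region, on both strands. The TCF/LEF motif was found in 14 of the 134 member regions, or 10.4%, against 8.43% of all regions. By class the counts were 2 of 54 MEF-specific (3.70%, all regions of that class 7.58%), 7 of 41 ESC-specific (17.1%, 10.5%), 4 of 21 common (19.05%, 4.63%) and, among transient regions, 1 of 18 (5.56%, 11.3%). These counts are small, and the differences from the genome shares were not tested. The AP-1 motif was found in 8 of the 54 MEF-specific member regions, or 14.8%, against 23.0% of all MEF-specific regions, and in 2 of the 41 ESC-specific ones. The SOX motif (CATTGTT or CTTTGTT) was found in 14 member regions, or 10.4%, against 10.6%, the octamer in 6, or 4.48%, against 2.18%, and the KLF motif (CCACACCC or CCCCACCC) in 10, or 7.46%, against 7.34%. The spelled motifs do not share letters in full, but a TCF/LEF or SOX match can overlap a match of the other. Over whole regions of unequal length, TCF/LEF matches were most numerous at Tcf7, Axin2 and Dkk3, with 7 each, and Axin2 held its 7 in 3 regions. Matches over whole regions were not counted for other genes, so these numbers cannot be read as particular to the loci.

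RefSeq promoters, taken as 250 bases before to 50 after a start, were found for 7 of the 10 genes. No TCF/LEF match lay in any of their promoters, where 8.65% of 32851 promoters held one. These genes had 13 promoters, some of them overlapping, and 7 of the 13 held a KLF match, at Lef1, Dkk2, Ctnnb1, Tcf7 and Tcf7l2, where the share over all promoters was 13.0%. Overlapping promoters of Lef1 may count the same KLF match more than once. The promoter shares were not tested, and the promoters were not matched for base composition.

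The rest of the pathway was described with a list of 79 other Wnt genes. In total they held 542 peaks in MEFs, 328 on day 5, 355 on day 10 and 429 in ESCs, the same order as at the 10 loci. More peaks in MEFs than in ESCs were found at 50 genes, fewer at 18 and equal numbers at 11, where the shares over all protein-coding genes were 42.2% for more and 35.6% for fewer. The pathway counts were not recomputed at equal list length. Ligands and their secretion factors had the most uneven split, with 19 of 24 higher in MEFs and 3 higher in ESCs. Among receptors the split was 12 to 3 of 18, among secreted or membrane inhibitors 6 to 2 of 12, among cytoplasmic components 6 to 5 of 11, among nuclear cofactors 5 to 3 of 9 and among target genes 2 to 2 of 5. A start-site peak was present at 60 of the 79 genes in MEFs, 45 on day 5, 48 on day 10 and 57 in ESCs, beside 60%, 52.1%, 56% and 55.8% of protein-coding genes. The ligands accounted for 15, 7, 6 and 12 of these. No difference from the background was tested, and the background was not matched for window length or peak density. The pathway genes are neighbours in part and share peaks, so they are not independent.

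**Figure D5:**
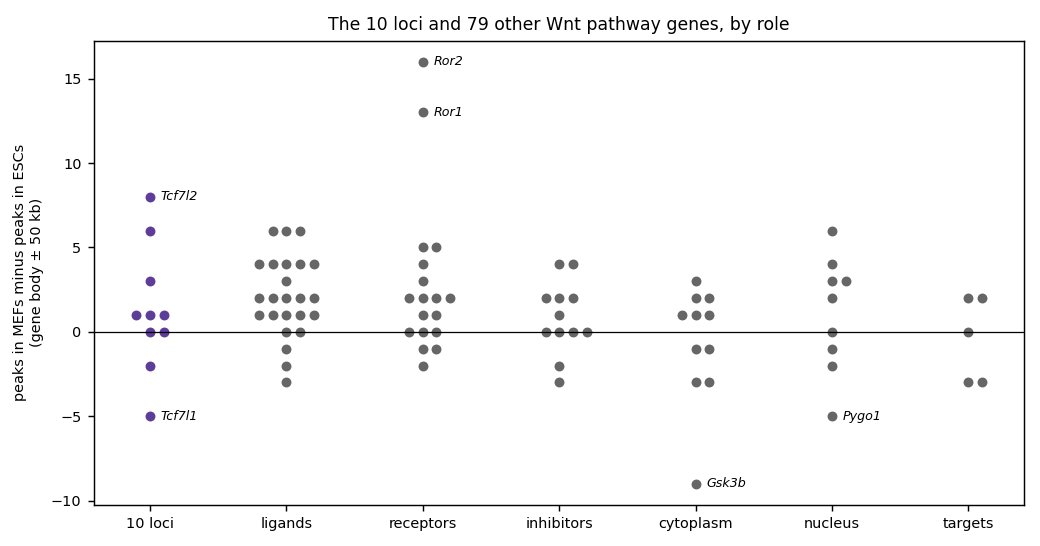
Difference in peak counts, MEFs minus ESCs, for the 10 loci and for 79 other Wnt pathway genes grouped by role, with 1 point per gene and points of equal value spread sideways. Points above 0 have more peaks in MEFs, where Ror2 stands at 16 and Ror1 at 13, and Gsk3b lies lowest at -9.

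The largest differences towards MEFs were at the receptors Ror2, with 22 peaks in MEFs, 6 on day 5, 8 on day 10 and 6 in ESCs, and Ror1, with 17, 3, 2 and 4. ROR proteins are receptors for WNT5A, whose own locus had 4, 2, 4 and 1. At equal list length the difference between MEFs and ESCs at Wnt5a was 0. Differences in this list are of raw counts and were not adjusted for window length. Next, with a difference of 6, came Wnt4 (6, 0, 0 and 0), Rspo2 (8, 3, 0 and 2), Wls (8, 5, 5 and 2) and Ctnnbip1 (9, 6, 7 and 3). The largest differences towards ESCs were at the kinase gene Gsk3b, with 6, 3, 4 and 15 peaks, and at the nuclear cofactor gene Pygo1, with 4, 2, 2 and 9. Next, with a difference of 3, came Dkk4, Dvl3, Gsk3a, Porcn, Sp5 and Tnfrsf19.

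Likeness to the TCF/LEF genes was measured as the sum of absolute differences in the 4 window counts. Lgr4 came nearest to Tcf7l1, with 9, 11, 12 and 11 peaks and a sum of 10. Lrp6, Znrf3 and Dvl1 came nearest to Tcf7l2 with a sum of 8. Wnt3, Dkk4 and Sfrp5 came nearest to Tcf7 with a sum of 4, and Rnf43 and Ccnd1 to Lef1 with a sum of 3. Low counts give small sums, so the values are not comparable between the 4 genes.

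At the border of the windows, the last peak inside was a MEF peak 48.5 kb from Sfrp1, chr8:23498180-23498740. The first outside was a day 5 peak 51.3 kb from Dkk2, chr3:132033395-132033972.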

How the data were processed

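The authors mapped ATAC-seq reads to mm10 with bowtie2 in very sensitive mode (version 2.2.0 in the submitters' processing notes), filtered by mapping quality, at thresholds that differ between labels and methods, and removed mitochondrial reads. The peak caller is not given in the sources used here. The authors deposited 1 list per group without replicate columns. Each peak carries a deposited score, 10 times the −log10 q-value without decimals, a fold enrichment (a ratio to background) by the authors and the authors' −log10 p-value and −log10 q-value, which were taken to belong to the whole replicate 1 peak, although the sources do not state how the lists were intersected.

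Peaks were assigned to gene bodies of the mouse GENCODE release M21 with 50 kb to each side, merged within 400 bp and compared as counts. Python 3.11.15, pandas 2.3.3 and scipy 1.17.1 were used. Code was tested on simulated data. Groups were taken from the labels. No test between groups was made. Members and lists were chosen with earlier results of these data known. Named were all 10 genes, their start-site peaks, the region of highest fold enrichment in each class and gene, the nearest pathway genes, the 3 largest differences of the pathway list with ties, and the peaks next to the window border. Other regions were named after their values were seen. Motifs and sequences were read from GRCm38. Alternatives were other flanks, a midpoint rule, a stricter q-value, equal list lengths, other start-site rules and other merging distances.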

Additional observations from a re-analysis of the deposited data

How the results depend on the processing

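Of 84 summary values under alternative settings, 70 stayed within their limits of 1.5 times for counts, or within the interval for shares, and 14 moved. These values are counts and shares without a sign, so none of them could reverse. The day 10 list sets the equal length and is not cut, so its own counts could not move at that setting. With gene bodies alone, the loci held 43 peaks in MEFs, 25 at day 5 and 28 in ESCs, the ESC-specific share was 21.9% and 1 gene had fewer peaks in MEFs than in ESCs. With flanks of 10 kb, MEFs held 46 peaks and ESCs 37, and with 100 kb MEFs held 115 and 4 genes had fewer peaks in MEFs than in ESCs. With all lists cut to the 35226 highest scores, MEFs held 46 peaks, day 5 held 38, day 10 held 49 and ESCs held 40, so that day 10 exceeded MEFs and the ratio of day 5 to MEFs was 0.826 in place of 0.533, 5 genes had a start-site peak in MEFs, the MEF-specific share was 31.7% and the transient share 28.7%. Of 60 differences per gene, 34 stayed, 22 moved and 4 reversed. The difference MEF minus ESC at Tcf7 was -2 with 50 kb, 2 with the gene body and 1 with 10 kb, and at Axin2 it was 1 with 50 kb and -1 with both 10 kb and 100 kb. For the window size and the list length the settings' own construction, which removes or adds peaks, makes the counts move. At equal list length the start-site calls of Tcf7 and Wnt5a in MEFs, Ctnnb1 in MEFs and ESCs and Dkk3 in ESCs were absent.

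No paired analysis was possible because each group has 1 list in which both replicates are already intersected, and leaving out a replicate was not run for the same reason. Read depth is unknown, so missing peaks are not evidence of closed chromatin.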
